A study of Mus musculus with 6 samples.

Results

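The genes described here are 49 markers of the dividing cell, 24 of S phase (Mcm5 to Uhrf1) and 25 of G2 and mitosis (G2/M; Cdk1 to Kif23), and all 49 were found by symbol among the 31055 features of the count matrix. They were read in neoplastic cells sorted from mouse lung tumours and profiled by droplet single-cell RNA sequencing (10x 3′ chemistry), in which a unique molecular identifier (UMI) lets each captured transcript be counted once. The tumours came from 6 mice and were started with lentiviral Cre (Lenti-Cre) delivered into the airway. All 6 mice carried Lkb1XTR/XTR and Rosa26LSL-tdTomato, a red fluorescent reporter of Cre activity. The XTR cassette sits in the first intron of Lkb1 (symbol Stk11) and, once Cre has inverted it, traps the transcript with a GFP sequence. FLPo-ERT2, a recombinase that tamoxifen activates, deletes the trap. The 3 Restored mice (2 male, 1 female) also carried FLPo-ERT2 and received tamoxifen. The 3 NonRestored mice were 1 male without FLPo-ERT2 given tamoxifen, 1 male without it given vehicle and 1 female with FLPo-ERT2 given vehicle. Tumours grew for 20 weeks, treatment with vehicle or 4 mg doses of tamoxifen in corn oil lasted 2 weeks, and cells with CD45, CD31, F4/80 or Ter119 on their surface were removed in the sort. Mice were 6 to 12 weeks old when tumours were started.

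The matrix pooled the cells of all mice and cells were not assigned to mice here, so Restored and NonRestored mice were not compared here, and the pooled matrix was treated as 1 sample without replicates. No test was made between cells. All 95% intervals are exact and cover counting error only; they say nothing of the spread between mice. Of 16017 cells, 12092 had at least 500 genes, at most 20% mitochondrial UMIs and a TdTomato UMI. Thinning each cell at random to 5000 UMIs dropped the 1036 that were shallower, and the 11056 that remained had a median of 20869 UMIs before thinning (range 5001 to 125731). Nearly every cell had a TdTomato UMI, including 78 of 79 cells with endothelial markers and 166 of 185 with fibroblast markers, so this gate did not separate tumour cells from the other cells of the sort.

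In S phase a cell copies its DNA: the MCM helicase is loaded and opened at origins, ribonucleotide reductase and thymidylate synthase supply nucleotides, and PCNA clamps the polymerases to the template. In G2 and mitosis cyclin-dependent kinase 1 with cyclins A and B, the Aurora kinases, the centromere proteins and the kinesin motors build the spindle and part the chromosomes, and the anaphase-promoting complex then destroys the cyclins. E2F factors, held back by the RB family in resting cells, act on many S phase genes, while many G2/M genes carry a cell cycle genes homology region (CHR) beside CCAAT boxes, bound by the DREAM and MuvB complexes and NF-Y. In the normal adult lung the alveolar epithelium divides rarely, and alveolar type II (ATII) cells are the main source of new cells.

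The promoters of the genes detected in the most cells are shown first, as sequence that the choice of members did not use. Each sequence below runs 5′ to 3′ over the 250 bases before the start of the gene in the RefSeq promoter table (build GRCm38.p6), with motif letters in capitals. The motifs were the E2F site (TTTCCCGC, TTTCGCGC, TTTGCCGC or TTTGGCGC), the CHR (TTTGAA) and the CCAAT box (CCAAT), read on both strands. The first 3 are the S phase genes with the highest share of cells among those with an entry.
Slbp (chr5:33652575-33652824, minus strand): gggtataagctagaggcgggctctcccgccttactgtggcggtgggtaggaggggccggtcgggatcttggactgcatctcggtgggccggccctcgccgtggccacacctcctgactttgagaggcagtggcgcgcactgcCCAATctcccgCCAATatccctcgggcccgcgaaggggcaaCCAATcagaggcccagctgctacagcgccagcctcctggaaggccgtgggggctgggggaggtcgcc
Tyms (chr5:30073626-30073875, minus strand): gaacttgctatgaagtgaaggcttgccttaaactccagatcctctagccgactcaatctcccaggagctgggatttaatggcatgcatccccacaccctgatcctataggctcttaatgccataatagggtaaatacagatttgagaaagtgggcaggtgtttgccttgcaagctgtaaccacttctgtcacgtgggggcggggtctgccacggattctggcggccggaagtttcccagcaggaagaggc
Rrm1 (chr7:102441445-102441694, plus strand): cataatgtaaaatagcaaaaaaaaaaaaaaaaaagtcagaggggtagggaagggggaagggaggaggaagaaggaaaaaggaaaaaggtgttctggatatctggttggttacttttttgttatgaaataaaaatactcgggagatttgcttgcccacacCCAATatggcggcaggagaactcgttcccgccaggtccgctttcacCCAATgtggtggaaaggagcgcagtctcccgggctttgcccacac
The next 3 are the G2/M genes chosen in the same way.
Cks2 (chr13:51644982-51645231, plus strand): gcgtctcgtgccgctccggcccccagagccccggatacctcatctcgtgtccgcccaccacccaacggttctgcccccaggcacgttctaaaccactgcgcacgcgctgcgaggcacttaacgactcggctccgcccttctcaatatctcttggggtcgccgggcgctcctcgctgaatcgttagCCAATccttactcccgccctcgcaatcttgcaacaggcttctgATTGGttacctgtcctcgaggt
Kif23 (chr9:61946800-61947049, minus strand): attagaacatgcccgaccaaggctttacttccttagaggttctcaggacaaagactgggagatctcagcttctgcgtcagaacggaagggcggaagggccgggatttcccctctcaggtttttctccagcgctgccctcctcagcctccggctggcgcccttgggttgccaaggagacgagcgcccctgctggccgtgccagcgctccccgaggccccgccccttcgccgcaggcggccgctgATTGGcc
Cdc20 (chr4:118437344-118437593, minus strand): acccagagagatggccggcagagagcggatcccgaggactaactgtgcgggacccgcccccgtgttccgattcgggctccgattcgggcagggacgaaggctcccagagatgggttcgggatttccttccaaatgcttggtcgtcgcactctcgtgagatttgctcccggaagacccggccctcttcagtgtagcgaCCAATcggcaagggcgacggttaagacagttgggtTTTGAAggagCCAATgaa
The last 3 were added after the values were seen, as genes with E2F sites (Mcm6) or with paired CHR and CCAAT letters (Mki67 and Ccnb2).
Mcm6 (chr1:128359706-128359955, minus strand): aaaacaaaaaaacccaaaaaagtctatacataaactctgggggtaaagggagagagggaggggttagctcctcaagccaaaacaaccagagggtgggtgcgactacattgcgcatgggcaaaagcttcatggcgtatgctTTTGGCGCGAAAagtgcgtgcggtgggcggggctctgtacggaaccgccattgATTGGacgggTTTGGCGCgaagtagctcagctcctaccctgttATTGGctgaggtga
Mki67 (chr7:135716380-135716629, minus strand): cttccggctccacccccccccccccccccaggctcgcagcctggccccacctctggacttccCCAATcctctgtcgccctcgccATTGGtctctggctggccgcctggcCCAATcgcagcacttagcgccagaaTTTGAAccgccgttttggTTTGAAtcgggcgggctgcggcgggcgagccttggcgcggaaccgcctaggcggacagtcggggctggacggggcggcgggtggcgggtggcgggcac
Ccnb2 (chr9:70421555-70421804, minus strand): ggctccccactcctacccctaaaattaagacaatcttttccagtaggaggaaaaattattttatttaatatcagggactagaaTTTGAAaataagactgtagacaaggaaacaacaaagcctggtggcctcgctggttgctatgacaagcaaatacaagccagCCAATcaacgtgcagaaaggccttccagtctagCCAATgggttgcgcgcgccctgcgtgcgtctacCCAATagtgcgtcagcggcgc

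Tyms had none of the motifs in this window, and Slbp, Rrm1 and Cks2 had CCAAT boxes without an E2F site or CHR. Kif23 had a CCAAT box here and a CHR only in the bases after its start. Over the full windows of 250 bases before to 50 after the start, 9 of 21 promoters of S phase genes (42.9%) held an E2F site, against 1 of 22 of G2/M genes and 2.26% of all 32851 promoters. The CHR was in 15 of the 22 G2/M promoters (68.2%), against 3 of the 21 S phase promoters (14.3%) and 17.9% of all. CCAAT boxes were frequent in both lists, in 71.4% and 77.3%, against 37.4% of all promoters. A CHR together with a CCAAT box was in 13 of the 22 G2/M promoters (59.1%), in 3 of the 21 S phase promoters (14.3%) and in 6.95% of all. The promoter table had entries for 20 of the 24 S phase genes and 22 of the 25 G2/M genes. A match of letters is a description and not a binding site.

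The plainest difference between both lists was how their transcripts were spread over the cells. The S list gave 11867 UMIs after thinning, a mean of 1.07 per cell, and 40.5% of the cells had none. The G2/M list gave 7283 UMIs, a mean of 0.659, and 80.5% of the cells had none. G2/M transcripts were gathered in few cells: the 1% of cells with the most (111 cells) held 56.2% of the G2/M UMIs, against 14.2% for the S list. The variance over the mean of the UMIs per cell was 25.6 for the G2/M list and 3.23 for the S list, and single cells reached 79 and 40 UMIs.

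**Figure D1:**
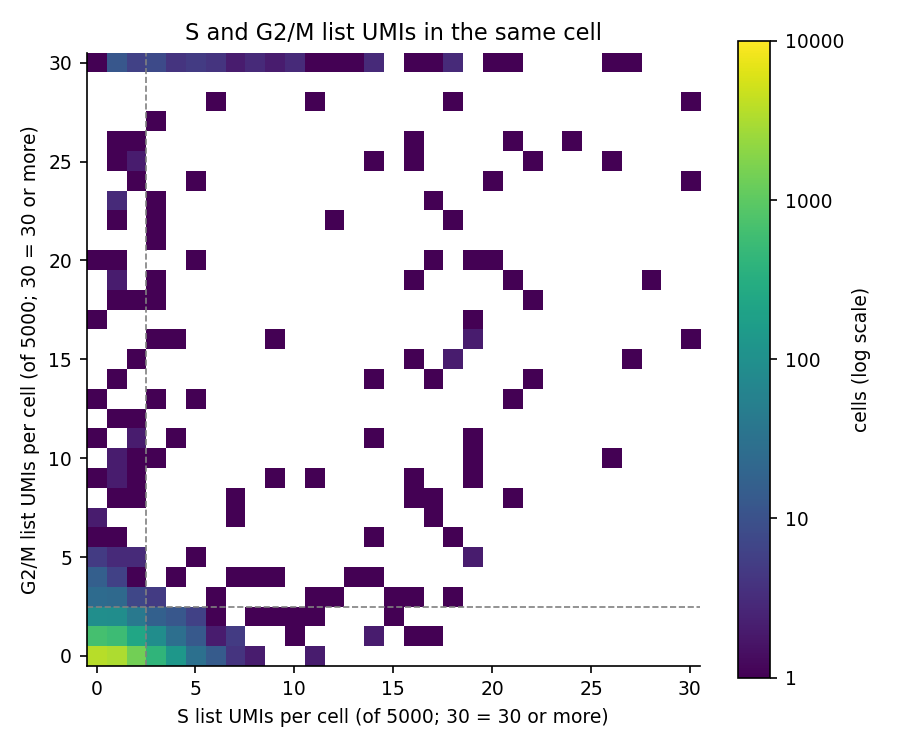
UMIs of the S list (horizontal) and of the G2/M list (vertical) in each of 11056 cells thinned to 5000 UMIs, with the number of cells as colour on a log scale and dashed lines at the class limit of 3 UMIs. Most cells lie in the lower left corner, a vertical arm holds cells with G2/M UMIs and few S UMIs, and cells with 10 or more S UMIs mostly lie above the horizontal line.

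A cell was placed in the S class when it had at least 3 UMIs of the S list, and in the G2/M class when it had at least 3 of the G2/M list. The S class held 916 cells (8.29%, interval 7.78 to 8.81) and the G2/M class 278 cells (2.51%, 2.23 to 2.82). Without thinning the shares were 63.8% and 14.0%. The classes are ranges of a count and not cell types: 1741 cells had 2 S UMIs and 543 had 3, and 270 cells had 2 G2/M UMIs and 66 had 3. Both limits were passed by 132 cells, the S limit alone by 784, the G2/M limit alone by 146 and neither by 9994.

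Cells with few and cells with many S UMIs differed in how often they were also in the G2/M class. Of 724 cells with 3 or 4 S UMIs, 29 were also in the G2/M class (4.01%, 2.70 to 5.70). Of 84 cells with 10 or more S UMIs, 74 were (88.1%, 79.2 to 94.1). Of 147 cells with 10 or more G2/M UMIs, 100 were in the S class, and 56 cells had at least 10 UMIs of each list. A cell in the S class alone had a mean of 3.61 S UMIs, whereas a cell in both classes had 12.4 S and 24.95 G2/M UMIs.

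As a reference, 43 ciliated airway cells, a type that does not divide, were taken by their markers (Foxj1 among them; median 13654 UMIs before thinning). In them 11 cells were in the S class (25.6%, 13.5 to 41.2; without thinning 69.8%), above the share of all retained cells. Rfc2 was found in 21 and Slbp in 15 of the 43, and Tyms in none. None of the 43 was in the G2/M class, which allows a share of up to 6.98%. A share of the S class at these levels is therefore given below as a count of transcripts and is not read as DNA synthesis.

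Most S UMIs came from a handful of widely detected genes. Slbp, the stem-loop binding protein of histone mRNA, was detected in 21.7% of the cells (20.9 to 22.5; 58.6% without thinning). Rfc2, a subunit of the clamp loader, was detected in 15.5% (14.9 to 16.2), and Tyms, thymidylate synthase, in 12.7% (12.1 to 13.3). Rrm1, the large subunit of ribonucleotide reductase, followed with 6.96%, and Pcna, the sliding clamp, with 6.68%. These 5 genes held 67.5% of all S UMIs. Most cells with these transcripts held fewer than 2 further G2/M members, though cells without the gene held them less often still. At least 2 further G2/M members were present in 5.13% of Slbp-positive, 5.99% of Rfc2-positive, 10.4% of Tyms-positive, 12.1% of Rrm1-positive and 10.0% of Pcna-positive cells. Among cells without the gene the shares were, in the same order, 3.57%, 3.52%, 2.96%, 3.30% and 3.47%.

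The other 19 S phase genes were each detected in 3.10% of the cells or fewer. The next in order were the helicase subunits Mcm6 (3.10%) and Mcm2 (2.44%), with Prim1, the small primase subunit, between them (3.01%). The rarest were E2f8, an atypical E2F that represses (0.217%, 24 cells), Ccne2, cyclin E2 (0.606%, 67 cells) and Uhrf1, which brings maintenance methylation to new DNA (0.660%, 73 cells). E2f8, Uhrf1 and Rrm2, the small subunit of ribonucleotide reductase (1.02%), were the only S phase genes for which over 50% of the positive cells had at least 2 G2/M members, with 87.5%, 63.0% and 73.5%. Rrm1 and Rrm2 encode partners in 1 enzyme, and Rrm1 was found in 770 cells and Rrm2 in 113.

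Counting only these 19 genes, 197 cells (1.78%, 1.54 to 2.05) had at least 3 S UMIs, and 103 of them (52.3%, 45.1 to 59.4) were in the G2/M class. Of the 916 cells of the full S class, 293 had no UMI of any of the 19. The ciliated cells then had 1 of 43 (2.33%). At least 1 UMI of the 19 was found in 2424 cells (21.9%), with a variance over the mean of 3.92, and the 1% of cells with the most held 27.9% of these UMIs. The full lists gave 3.29 S class cells for each G2/M class cell, a number that followed depth and limit: it was 1.92 at 3000 UMIs, 6.11 at 10000 UMIs and 1.05 with a class minimum of 5 UMIs.

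The G2/M list had its own scattered members. Cks2, a small subunit of cyclin-dependent kinases, was detected in 7.97% of the cells (7.47 to 8.49), Kif23, a kinesin of the central spindle, in 4.99% and Cdc20, an activator of the anaphase-promoting complex, in 3.59%. Together they held 34.1% of the G2/M UMIs. At least 2 other G2/M members were present in 17.0% of Cks2-positive, 19.6% of Kif23-positive and 34.8% of Cdc20-positive cells. Among cells without the gene the shares were 1.84%, 2.29% and 2.28%. Cks2 was also found in 8 of the 43 ciliated cells.

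The remaining 22 G2/M genes were detected in 2.17% of the cells or fewer, and mostly together. Mki67, a coat of mitotic chromosomes and the usual stain for dividing cells, was in 2.17% (240 cells), Cenpf, a kinetochore protein, in 1.67%, Cdk1 in 1.62%, Birc5, or survivin, of the chromosomal passenger complex in 1.57% and Cenpa, the histone of centromeres, in 1.51%. The rarest were the checkpoint kinase Ttk (0.253%, 28 cells), Ndc80 of the outer kinetochore (0.371%) and Aurkb, the kinase of the passenger complex (0.479%, 53 cells). In 20 of the 25 G2/M genes more than 50% of the positive cells had at least 2 other G2/M members. The highest were the B-type cyclin Ccnb1 with 95.3% of its 64 cells and Ttk with 92.9% of its 28. Among cells without Ccnb1 the share was 3.38%, and among cells without Ttk 3.67%. With Cks2, Kif23 and Cdc20 set aside, the class held 209 cells (1.89%, 1.64 to 2.16), and the variance over the mean of the other 22 genes was 26.7. With both lists cut in this way, to 19 and 22 genes, the S class had 0.943 cells for each G2/M class cell.

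**Figure D2:**
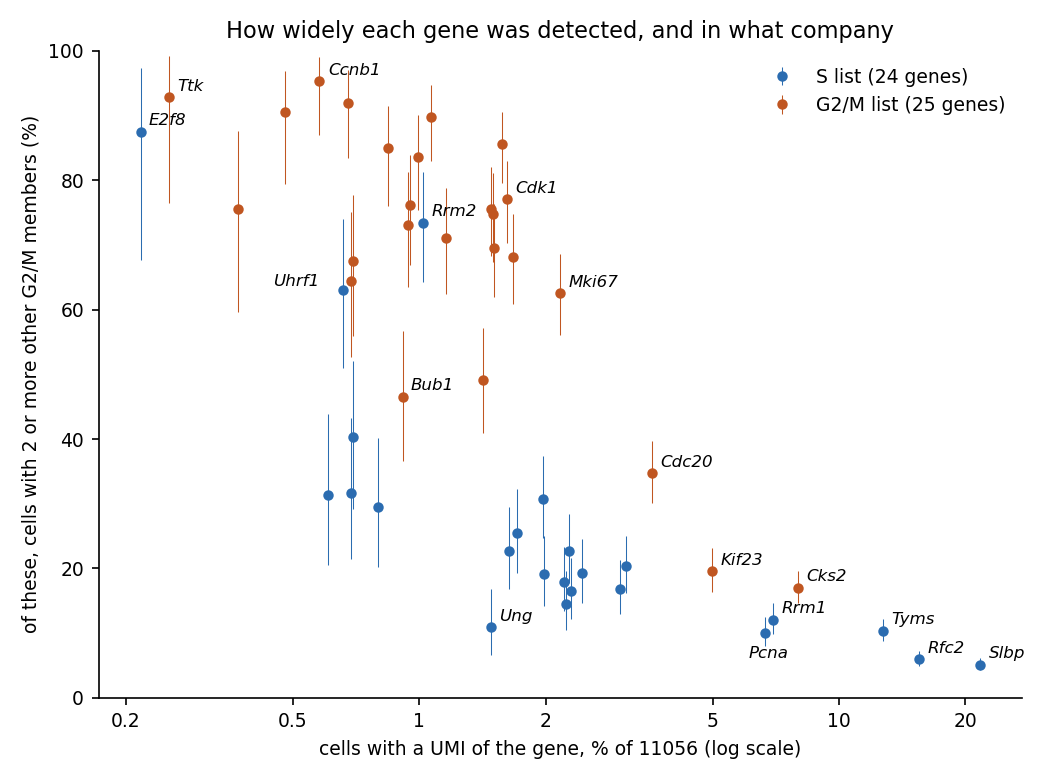
Each point is a gene, with the share of 11056 thinned cells that had a UMI of it (log scale) against the share of those cells that had at least 2 other G2/M members, and bars are exact binomial 95% intervals. The widely detected genes Slbp, Rfc2, Tyms, Rrm1, Pcna, Cks2 and Kif23 lie low on the right, between 5.13% and 19.6%, while Ccnb1, Ttk, Cenpe and Aurkb lie between 90.6% and 95.3%.

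Ube2c, the E2 enzyme of the anaphase-promoting complex, was the most uneven single gene: 166 cells held 596 UMIs, up to 22 in 1 cell, and its variance over the mean was 7.90. Ube2c was found in 37.0% of the cells of the G2/M class alone, in 56.1% of those in both classes and in none of the 784 cells of the S class alone, which allows up to 0.383%. Since the classes were made from these genes, the shares that follow describe them and support nothing.

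Cells in both classes and cells in the G2/M class alone differed in which G2/M genes they held. Top2a, which untangles DNA, was found in 71.2% against 22.6%, Cdk1 in 76.5% against 27.4% and Ccna2, cyclin A2, in 50.8% against 17.1%. The kinases of the checkpoint and the passenger complex had the same direction, Aurkb with 32.6% against 4.11%, Bub1 with 25.8% against 9.59% and Ttk with 18.2% against 1.37%. Aurka, the centrosomal Aurora kinase, was in 27.3% against 9.59%. For Ccnb2, Cenpa, Ccnb1 and Cks2 the shares were nearer to each other: Ccnb2 was in 32.6% against 34.2%, Cenpa in 43.2% against 40.4%, Ccnb1 in 27.3% against 17.1% and Cks2 in 69.7% against 57.5%. Cells of both classes also had more G2/M UMIs in all, 24.95 against 12.6 on average.

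Both G2/M groups had more RNA than the rest before thinning. The median was 34202.5 UMIs per cell in both classes, 27985.5 in the G2/M class alone, 18348.5 in the S class alone and 20829.5 in cells of neither. Doublets were not called, and their part in these totals was not tested. Leaving out the 5% of cells with the most UMIs left a G2/M class of 215 cells (2.05%).

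Cell cycle genes outside both lists were not counted in making the classes, though they come from the same cells, and are described without a test. Of 19 other mitosis genes with at least 30 UMIs, all 19 were at least 2-fold higher (CPM, UMIs per 1000000) in cells of both classes than in cells of neither, 17 were in the G2/M class alone and 5 in the S class alone. Among all 13299 features outside the members with as many UMIs, 12.6% were at least 2-fold higher in cells of both classes, 10.5% in the G2/M class alone and 4.48% in the S class alone. Pttg1, securin, was found in 31.8% of cells of both classes, 32.2% of the G2/M class alone, 0.638% of the S class alone and 0.610% of cells of neither. Of 13 other replication genes all 13 were at least 2-fold higher in both classes, 8 in the G2/M class alone and 6 in the S class alone. Lig1, DNA ligase 1, was in 44.7%, 7.53%, 6.76% and 2.58% of the same 4 groups. All 10 chromatin and tubulin genes were at least 2-fold higher in both classes and in the G2/M class alone, and 1 was in the S class alone. Tuba1b, an alpha-tubulin, was in 90.9%, 52.1%, 43.8% and 39.7%.

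Regulators of the G1 to S step were more mixed. Ccne1, cyclin E1, which opens S phase, was found in 18.2% of cells of both classes, in 0.383% of the S class alone, in 0.110% of cells of neither and in none of the 146 cells of the G2/M class alone, which allows up to 2.05%. Cdt1, which licenses origins and is destroyed in S phase, was in 16.7%, 2.04%, 1.19% and again none of the 146. Of 14 regulators of the G1 to S step with enough UMIs, 7 were at least 2-fold higher in both classes, 2 in the G2/M class alone and 3 in the S class alone. In the G2/M class alone 5 of the 14 were at least 2-fold lower (Ccnd2, E2f2, Cdk6, Ccne1 and Cdt1), against 13.9% of the 13299 features. The calls for Ccne1 and Cdt1 rest on a count of 0, and the 2.05% allowed exceeds their shares in cells of neither. Cdk6 was in 0.685% of the G2/M class alone and 1.23% of cells of neither, both also under 2.05%. For Ccne1, Cdt1 and Cdk6 a lower level therefore cannot be told from no change. Ccnd1, cyclin D1, was abundant everywhere, at 295 CPM in cells of neither class and 409 CPM in cells of both. Of the 10 RB family and CDK inhibitor genes, 4 were at least 2-fold higher in cells of both classes and 2 at least 2-fold lower, against 17.0% of the 13299 features lower. In the G2/M class alone 2 were higher and 3 lower. In cells of both classes the higher were Rb1, Rbl1 (p107), Cdkn2c and Cdkn2d, and the lower Cdkn1a and Cdkn2b. Cdkn2b (p15), an inhibitor of Cdk4 and Cdk6, stood at 15.2 CPM in cells of both classes, 38.4 CPM in the G2/M class alone, 78.6 CPM in the S class alone and 65.9 CPM in cells of neither. Cdkn1a (p21), an inhibitor that p53 induces, was lower in cells of both classes (182 CPM) and of the G2/M class alone (210 CPM) than in cells of neither (435 CPM), and highest in the S class alone (562 CPM). The named genes of this paragraph and the last were chosen after their values were seen.

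The rule next divided the cells by marker transcripts on the deposited counts. Sftpc-high cells had at least 500 Sftpc UMIs per 10000 and carried the surfactant genes of ATII cells. Hopx-high cells had at least 15 Hopx UMIs per 10000, and their Ager, a marker of the flat alveolar type I (ATI) cell, stood at 6239 CPM against 1161 CPM in Sftpc-high cells. Keratin-high cells had at least 50 UMIs of Krt8 and Krt18 per 10000, and Krt19, not used by the gate, stood at 1855 against 207 CPM. After thinning there were 8234, 956 and 1089 cells, and 1294 cells lay in none of the gates. The gates overlapped, with 267 cells both Sftpc- and Hopx-high, 154 Sftpc- and keratin-high and 115 Hopx- and keratin-high. Median UMIs before thinning were 21906, 13779.5, 24925 and 15880.5. The thinning left out 290 Sftpc-high, 121 Hopx-high, 93 keratin-high and 566 ungated cells that were too shallow.

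The G2/M class was rarest in Hopx-high cells and most frequent in keratin-high and ungated cells. It held 2 of 956 Hopx-high cells (0.209%, 0.0253 to 0.754; 3.56% without thinning) and 160 of 8234 Sftpc-high cells (1.94%, 1.66 to 2.26; 11.8%). It held 55 of 1089 keratin-high cells (5.05%, 3.83 to 6.52; 32.9%) and 74 of 1294 ungated cells (5.72%, 4.52 to 7.13; 18.9%). The ungated cells contained other cell types, with fibroblast markers at 6321 CPM against 24.05 CPM in Sftpc-high cells. Without cells bearing endothelial, fibroblast or immune markers, the G2/M class held 59 of 993 ungated cells (5.94%, 4.55 to 7.60).

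**Figure D3:**
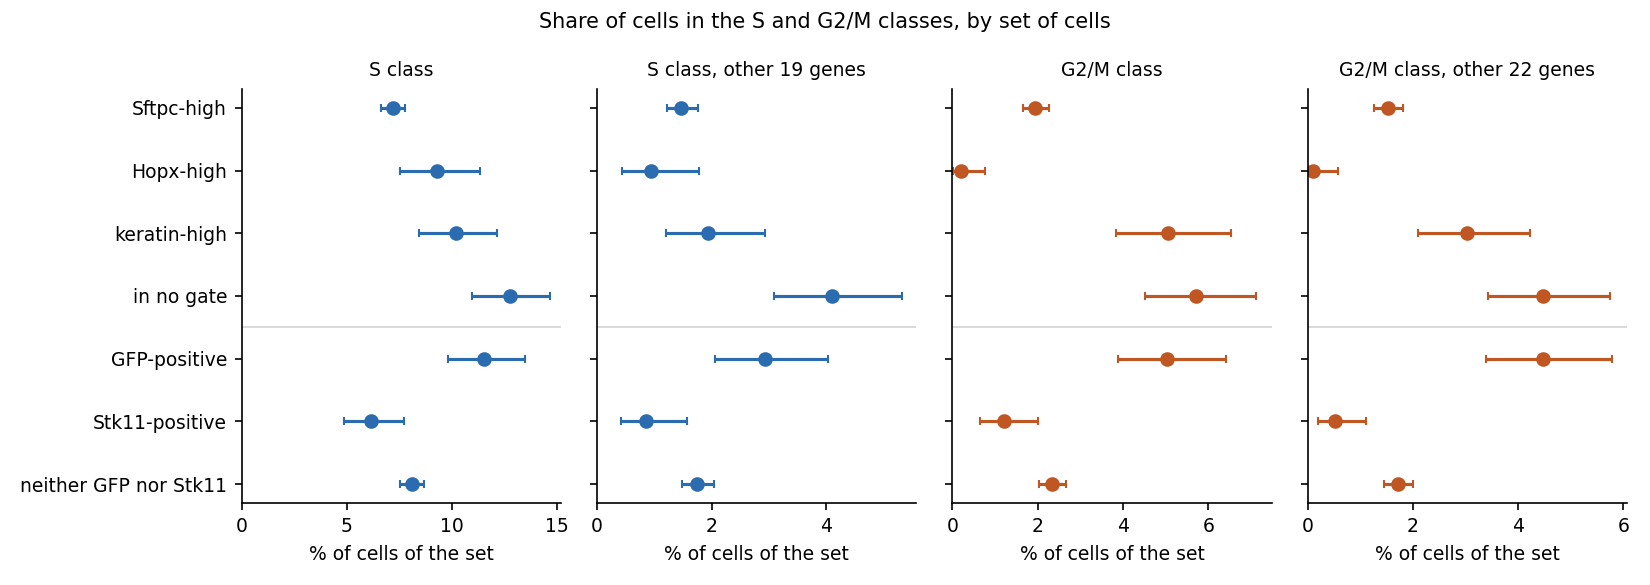
Share of cells in the S class and in the G2/M class, each from the full list and from the list without its most widely detected genes, by gate (upper 4 rows) and by GFP or Stk11 detection (lower 3 rows); points are shares and bars exact binomial 95% intervals. In Hopx-high cells the S class share of 9.31% lies above that of Sftpc-high cells, while the other 3 panels place Hopx-high cells lowest of the gates.

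The S class did not follow the same order. It held 7.20% of Sftpc-high cells (6.65 to 7.78; 63.4% without thinning), 9.31% of Hopx-high cells (7.54 to 11.3; 56.9%), 10.2% of keratin-high cells (8.46 to 12.1; 77.6%) and 12.8% of ungated cells (60.6%). All 4 lay below the 25.6% of ciliated cells. Ciliated markers summed to 49.1 CPM in Sftpc-high, 205 CPM in Hopx-high, 347 CPM in keratin-high and 372.5 CPM in ungated cells. Without the ciliated marker cells the shares were 7.19%, 9.32%, 10.2% and 12.4%, as 3 Sftpc-high, 1 Hopx-high, no keratin-high and 39 ungated cells were such cells. With the 19 less widely detected genes the shares were 1.47% (1.22 to 1.75), 0.941% (0.431 to 1.78), 1.93% (1.20 to 2.93) and 4.10% (3.08 to 5.32).

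**Figure D4:**
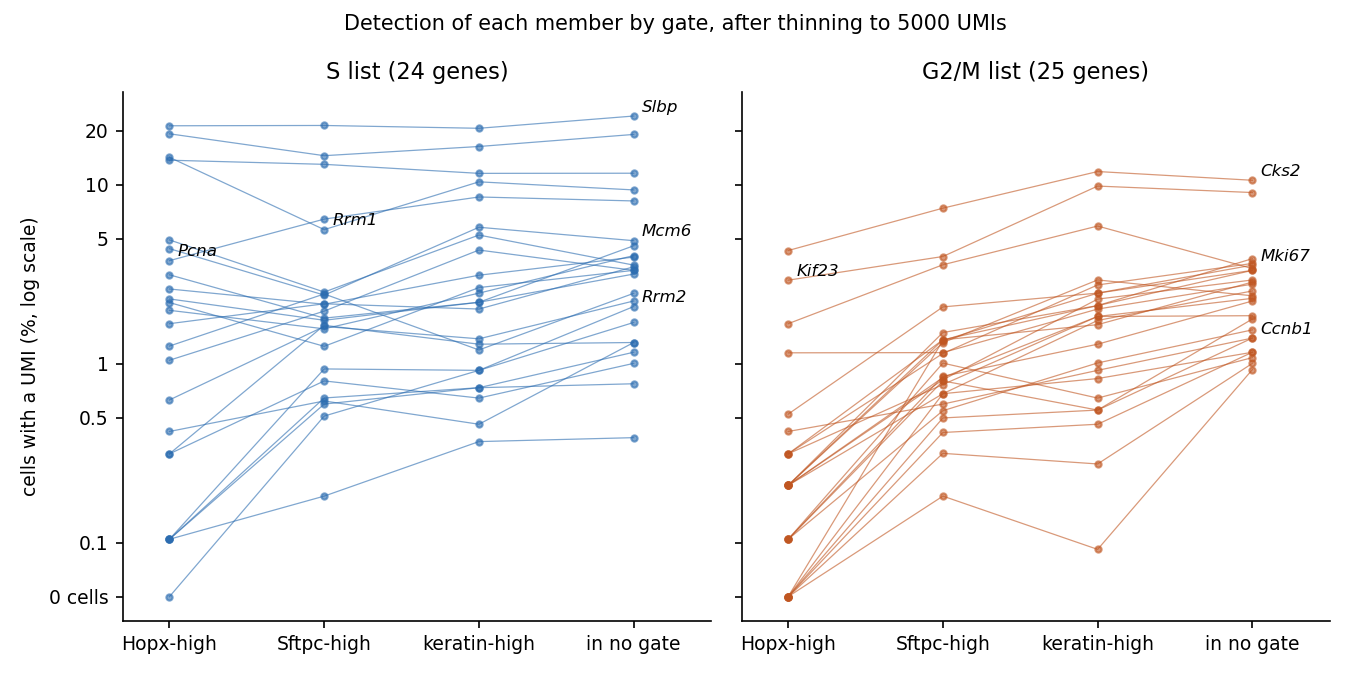
Share of cells with a UMI of each member (log scale) in the 4 gates, after thinning to 5000 UMIs, with a line for each gene; members found in no cell of a gate are drawn at the mark for 0 cells. All 25 G2/M genes have their lowest share in Hopx-high cells, while the S phase genes part, with Rrm1 at 14.2% and Rrm2 at 0.105% there.

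Gene by gene, all 25 G2/M members had their lowest share of the 4 gates in Hopx-high cells, and 21 had their highest in ungated and 4 in keratin-high cells. Of the 24 S phase members 12 had their lowest share in Hopx-high and 9 in Sftpc-high cells, and 16 had their highest in ungated cells. Mki67 was found in 0.523% of Hopx-high, 2.08% of Sftpc-high, 2.48% of keratin-high and 3.55% of ungated cells. Cdk1 was found in 0.209%, 1.36%, 2.11% and 3.86% of the same gates. Slbp had a much narrower range, with 21.3%, 21.4%, 20.7% and 24.2%, and for Tacc3, a spindle protein, Hopx-high and Sftpc-high cells were nearly equal (CPM ratio 1.00).

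In Hopx-high over Sftpc-high cells, 1 of 23 S phase and none of 24 G2/M genes with at least 30 UMIs over both sets had a CPM ratio of 2 or more, where 11.3% of all 12183 features tested did. A ratio of 0.5 or less was found for 8 of the 23 S phase and 21 of the 24 G2/M genes, against 9.36% of all features. Apart from Cks2 and Kif23, the tested G2/M genes had fewer than 30 UMIs in Hopx-high cells. They reached the limit through the larger set of Sftpc-high cells, so the count describes them and supports nothing. Of these 24 G2/M genes 5 had no UMI in Hopx-high cells, and with them set at a floor of 3 UMIs over the set 19 genes remained at 0.5 or less. The median log2 ratio was -3.11 for the G2/M genes (-2.52 with that floor), -0.19 for the S phase genes and 0.30 for all features. The S class ratio was 1.29 (1.02 to 1.62), and 0.641 (0.286 to 1.26) from the 19 genes. On the log2 scale the ratio of 1.29 was 0.37 (0.03 to 0.69), a range that includes the median of 0.30 for the CPM ratios of all features. The G2/M class ratio was 0.108 (0.0129 to 0.395) and rests on 2 Hopx-high cells. With a class minimum of 2 UMIs it was 0.481, from 18 of 956 against 322 of 8234 cells.

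The S phase genes that were higher in Hopx-high cells were led by Rrm1, found in 136 of 956 cells (14.2%) against 462 of 8234 (5.61%), a CPM ratio of 2.47. Behind it came Prim1 (1.87), Mcm6 (1.75), Mcm4, a further helicase subunit (1.69), and Gins2 of the active helicase (1.67). The partner Rrm2 went the other way, with 1 Hopx-high cell (0.105%) against 77 Sftpc-high cells (0.935%), a share ratio of 0.112 (0.0028 to 0.642). Birc5 had no UMI in Hopx-high cells and 268 in Sftpc-high cells, and so was at least 10.4-fold lower with 3 UMIs as the floor. Anln, which organises the contractile ring, was at least 2.90-fold lower, Ccnb1 at least 2.24-fold and Uhrf1 at least 2.13-fold, all with no UMI. Aurkb and Ndc80 also had none, against 48 and 34 UMIs. These bounds are set by the floor, and among genes with UMIs on both sides some CPM ratios were lower still. Ube2c had 2 UMIs against 430 (CPM ratio 0.0401, share ratio 0.159, 0.0191 to 0.590) and Cdk1 2 against 268 (0.0643, share ratio 0.154, 0.0184 to 0.569). Ccna2 had 1 against 105 (0.0820), Nusap1, a spindle protein, 1 against 101 (0.0853) and Bub1 1 against 97 (0.0888). Ccne2 was found in 1 Hopx-high cell, and Ccnb2 and Aurka in 2.

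In keratin-high over Sftpc-high cells a CPM ratio of 2 or more was found for 5 of 23 S phase and 6 of 24 G2/M genes, against 13.1% of all 12255 features tested. None of these members had a ratio of 0.5 or less, against 8.04% of all features. The median log2 ratio was 0.55 for the G2/M genes, 0.14 for the S phase genes and 0.31 for all features. The class ratios were 2.60 (1.88 to 3.55) for G2/M and 1.42 (1.15 to 1.74) for S. On the log2 scale the S class ratio was 0.50 (0.20 to 0.80), a range that includes the median of 0.31 for the CPM ratios of all features. From the less widely detected genes the class ratios were 2.00 (1.32 to 2.95) for G2/M and, for S, 1.31 (0.784 to 2.10), an interval that includes 1. Both comparisons share the Sftpc-high cells.

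The G2/M genes highest in keratin-high cells were Anln, in 1.74% against 0.680% of the cells (CPM ratio 2.52), Ccnb2, in 2.30% against 0.814% (2.50), Kif23, in 9.83% against 3.97% (2.49), and Hmmr, a spindle assembly factor, in 1.84% against 0.838% (2.43). Mcm6 led the S phase genes, in 5.79% against 2.42% (2.35). Other G2/M genes had ratios near 1 in the same cells: Mki67 had a CPM ratio of 1.03, Top2a of 1.00 and Aurka of 1.00. The lowest ratios belonged to Clspn, an adaptor of the replication checkpoint (0.518), Rrm2 (0.531), Bub1 (0.624), Ndc80 (0.667) and Cdc6, an origin licensing factor (0.675). Of the other kinases and cyclins, Cdk1 stood at 1.21, Ccna2 at 1.87, Ccnb1 at 1.56, Ccne2 at 1.10 and Aurkb at 0.788. Ttk was found in 1 keratin-high and 15 Sftpc-high cells, too few to be tested. Cells in both the S and G2/M classes were not detectably more frequent, with a ratio of 1.35 (0.724 to 2.36).

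The last division was by GFP, the sequence of the trap cassette, and Stk11. After thinning, 1230 cells had a GFP and no Stk11 UMI (GFP-positive; median 21781 UMIs before thinning) and 1168 had a Stk11 and no GFP UMI (Stk11-positive; median 19936). Only 4 cells had both, and 8654 had neither. A UMI of either is a detection in that cell and gives neither the mouse nor the state of its allele. Since cells were not assigned to mice, the mouse and the transcript set cannot be told apart. The sets also differed in make-up: 735 of the GFP-positive and 936 of the Stk11-positive cells were Sftpc-high, 237 and 65 were keratin-high, and fibroblast markers summed to 12.5 and 570 CPM.

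GFP-positive cells held more transcripts of both lists. The G2/M class took 62 of 1230 GFP-positive cells (5.04%, 3.89 to 6.42; 20.4% without thinning) and 14 of 1168 Stk11-positive cells (1.20%, 0.657 to 2.00; 7.19%), a ratio of 4.21 (2.33 to 8.13). The S class took 142 (11.5%, 9.81 to 13.5; 71.5%) and 72 (6.16%, 4.85 to 7.70; 57.9%), a ratio of 1.87 (1.40 to 2.52). Cells with neither transcript lay between, with 2.33% in the G2/M class and 8.10% in the S class. Both classes at once were met by 32 GFP-positive and 3 Stk11-positive cells, a ratio of 10.1 (3.17 to 51.7). With the 19 and 22 less widely detected genes the ratios were 3.42 (1.66 to 7.72) for S and 8.70 (3.75 to 24.7) for G2/M.

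**Figure D5:**
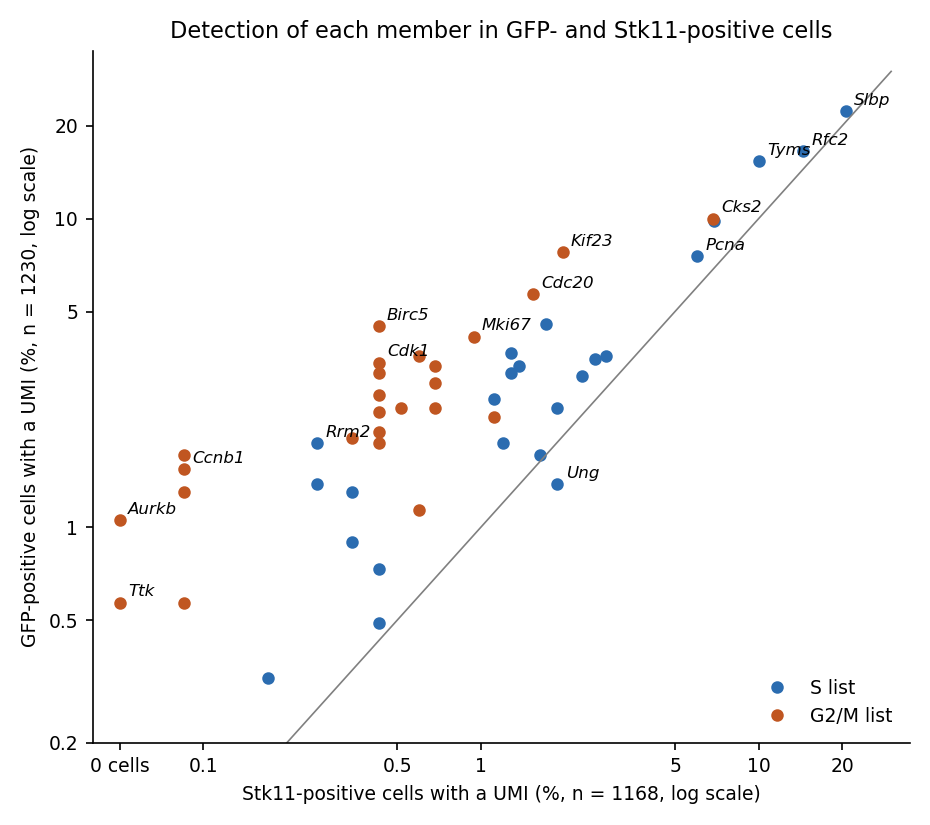
Share of cells with a UMI of each member in Stk11-positive (horizontal) and GFP-positive cells (vertical), both on log scales, with the grey line marking equal shares; Aurkb and Ttk had 0 Stk11-positive cells. All 25 G2/M genes lie above the line, Cks2 nearest to it, and of the S phase genes Ung alone lies below.

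All 25 G2/M genes and 23 of the 24 S phase genes were found in a larger share of GFP-positive than of Stk11-positive cells. All features leaned the same way (median log2 CPM ratio 0.21), and their share with this direction was not counted. For all 25 G2/M genes and 19 S phase genes the share in cells with neither transcript lay between both. A CPM ratio of 2 or more was found for 18 of 19 G2/M genes and 6 of 18 S phase genes with at least 30 UMIs, against 4.17% of all 10740 features tested. None of these members had 0.5 or less, against 2.25% of all. Apart from Cks2 and Cdc20, the tested G2/M genes had fewer than 30 UMIs in Stk11-positive cells. They reached the limit through the GFP-positive cells, where they were high, so the count describes them and supports nothing. The median log2 ratio was 2.93 for the G2/M genes, 0.61 for the S phase genes and 0.21 for all features.

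Ccnb1 had the highest CPM ratio of the members with at least 30 UMIs over both sets, and Rrm2 and Cdk1 followed. This order depends on that limit and on single UMIs in Stk11-positive cells. Kif11, with 27 UMIs against 1, and Anln, with 25 against 1, fell short of it and were not ranked. Ccnb1 had 36 UMIs in 19 GFP-positive cells and 1 UMI in 1 Stk11-positive cell, a share ratio of 18.0 (2.87 to 750). Cdk1 had 92 UMIs in 42 cells (3.41%) against 6 UMIs in 5 cells (0.428%), a CPM ratio of 14.6 and a share ratio of 7.98 (3.16 to 25.8). Rrm2 had the highest ratio of the tested S phase genes, in 23 cells (1.87%) against 3 (0.257%), a CPM ratio of 16.5. Cenpf was in 3.58% against 0.599% of the cells (CPM ratio 11.4) and Hmmr in 2.68% against 0.428% (11.2). Mki67, in 4.15% against 0.942%, had a CPM ratio of 7.28, and Birc5, in 55 cells against 5, of 8.29.

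The other cyclins and kinases followed. Ccna2 had a CPM ratio of 7.73, Aurka of 6.08 and Ccnb2 of 3.36. Aurkb was found in 13 GFP-positive cells and Ttk in 7, each against no Stk11-positive cell, which allows up to 0.257%. Bub1 was in 14 cells against 7 and Ccne2 in 9 against 5. The 5 widely detected S phase genes had CPM ratios of 1.11 (Slbp), 1.17 (Rfc2), 1.35 (Pcna), 1.52 (Rrm1) and 1.74 (Tyms). The widely detected G2/M genes were unlike each other, with 1.42 for Cks2, 4.60 for Kif23 and 5.63 for Cdc20. Ung, the uracil glycosylase that clears uracil from DNA, was the only tested member with a ratio under 1, at 0.734, in 17 GFP-positive and 22 Stk11-positive cells with a share ratio of 0.734 (0.366 to 1.45).

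Outside both lists, a CPM ratio of 2 or more in the same comparison was compared with the 4.17% of all 10740 features. It was found for 10 of 12 other mitosis genes, 6 of 11 other replication genes and 3 of 12 regulators of the G1 to S step. Tk1, thymidine kinase, stood at 6.51 with 48 UMIs against 7, and Plk1, polo-like kinase 1, at 13.8 with 29 against 2. Ccnd1 was in 73.4% of GFP-positive and 46.5% of Stk11-positive cells, a ratio of 2.09. Wee1, which holds Cdk1 back, stood at 0.874. None of the 10 RB family and CDK inhibitor genes reached 2 or 0.5, and 1 of the 10 chromatin and tubulin genes reached 2. With 10 genes each, these counts are not set apart from all features (4.17% higher, 2.25% lower). Tk1, Plk1, Ccnd1 and Wee1 were named after their values were seen.

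Within Sftpc-high cells the G2/M class held 34 of 735 GFP-positive and 9 of 936 Stk11-positive cells, a ratio of 4.81 (2.26 to 11.4), and the S class ratio was 2.55 (1.75 to 3.76). In keratin-high cells the G2/M class held 17 of 237 GFP-positive and none of 65 Stk11-positive cells, which allows up to 4.62%, while the S class ratio was 0.720 (0.306 to 1.88). Hopx-high cells had 0 of 137 against 1 of 144 in the G2/M class, and ungated cells 13 of 196 against 4 of 78, a ratio of 1.29 (0.400 to 5.45). Over all cells outside the Sftpc gate the S class ratio was 0.905 (log2 -0.14, -0.82 to 0.56). Whether the ratios differ between gates was not tested.

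Transcripts of the sex chromosomes differed in share between the classes with G2/M transcripts and the rest. Cells with an Xist and no Y gene UMI made up 63.6% of the cells in both classes, 57.5% of the G2/M class alone, 38.6% of the S class alone and 38.7% of cells in neither. Among them the G2/M class held 30 of 432 GFP-positive and 5 of 389 Stk11-positive cells, a ratio of 5.40 (2.08 to 17.8). Among cells with a Y gene and no Xist UMI it held 30 of 690 against 9 of 645, a ratio of 3.12 (1.44 to 7.46). Without cells bearing endothelial, fibroblast or immune markers, the G2/M class held 62 of 1229 GFP-positive (5.04%) and 13 of 1144 Stk11-positive cells (1.14%).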

How the data were processed

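Sorted cells from the tumours of 6 mice were profiled with 10x 3′ chemistry. Part of the genotype shared by all mice is not reported here. The deposited matrix held whole UMI counts per gene and cell, which the authors made with Cell Ranger (version 3.0.2 per the file header) on mm10. Cells were not assigned to mice here, so the comparison of Restored with NonRestored mice that had been planned could not be run. Cells needed at least 500 genes, at most 20% mitochondrial UMIs and 1 TdTomato UMI, and were thinned without replacement to 5000 UMIs with a fixed seed. Gates used deposited counts, as UMIs per 10000. GFP and Stk11 were read after thinning. Doublets were not called. Shares carry exact Clopper-Pearson 95% intervals and ratios exact conditional intervals, for counting error only. For a share of 0 the text says that it allows up to 3 counts of the total, which is a floor and not an exact 95% limit. Features with at least 30 UMIs over both sets were compared by CPM ratio, called at 2-fold. For the comparisons between classes the 30 UMIs were counted over all retained cells. By rule, the text names the 8 most and 3 least detected members of each list, the 5 members with the largest ratio in each direction of each comparison, and every cyclin and kinase; other names were chosen after their values were seen. Reference cell types had at least 10 marker UMIs per 10000 (20 for endothelial cells and fibroblasts) and a UMI of their defining genes. Members, lists and the rule were chosen with earlier results of these data known. Scripts were tested on simulated data. The software was scipy 1.17.1 and numpy 2.4.6 under Python 3.11.15, with pandas 2.3.3 for tables and matplotlib 3.10.9 for plots.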

Additional observations from a re-analysis of the deposited data

Results flagged for a closer look

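Cells with over 20% mitochondrial UMIs were left out of every comparison and still held G2/M transcripts. Of 382 such cells with at least 5000 UMIs, 7 were in the G2/M class (1.83%, 0.740 to 3.74). Of the 28 cells without a TdTomato UMI none was in it, which allows up to 10.7%.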

How the results depend on the processing

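Of 94 recomputed values, 74 stayed inside the counting interval of the value reported, 16 left it with the same sign and 4 changed sign. On the log2 scale the keratin-high over Sftpc-high ratios (1.38 for G2/M, 0.50 for S) stayed between 0.94 and 1.60 and between 0.25 and 0.64, though the S interval included 0 at 3000 UMIs, with a class minimum of 5 and with the other 19 genes. The Hopx-high over Sftpc-high G2/M ratio (-3.22) was -1.05 with a class minimum of 2 UMIs, and a minimum of 5 gave no value, with 0 of 956 Hopx-high cells. The S ratio (0.37) was -0.81 with a minimum of 5 and -0.64 with the other 19 genes, and its interval also included 0 at 3000 UMIs and with UMIs of 3 different genes. The GFP-positive over Stk11-positive G2/M ratio (2.07) was 3.04 with a minimum of 5 and 3.12 with the other 22 genes. Its S ratio (0.91) was 0.48 at 3000 UMIs, 0.44 and 2.10 with minimums of 2 and 5, 1.38 with UMIs of 3 different genes, 1.77 with the other 19 genes, 1.35 within and -0.14 outside Sftpc-high cells, and 1.58 in cells with an Xist UMI and no Y gene UMI. The S class over G2/M class ratio of all cells (1.72) was 0.94 at 3000 and 2.61 at 10000 UMIs, 2.28 and 0.069 with minimums of 2 and 5, 1.47 with 3 different genes, 1.97 without the 5% of cells with the most UMIs and -0.085 with the other genes. Causes were not tested. The sets of other genes, the Xist and Y gene strata and the removal of ciliated marker cells were chosen after seeing the data. No paired analysis was possible because the cells of all mice share 1 matrix with no replicate to leave out.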
